A study of Mus musculus with 12 samples.

Results

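The collagen genes were followed through RNA-seq of a mouse mammary carcinoma line recovered from the lung. They were taken as every gene of the expression table whose name has the form Col, a type number, a and a chain number. This rule found 44 of the 54146 genes, of which 6 encode fibrillar chains (Col1, Col3 and Col5), 6 encode basement membrane chains (Col4) and 32 encode other types. Of these, 38 were above 0 in at least 1 library, and 20 reached the level needed for testing, which was a TPM (a transcript level relative to gene length and library total) of at least 1 in at least 3 libraries. The samples were D2A1 cells carrying an inducible histone H2B fused to green fluorescent protein (GFP) and stained with CellVue Claret, a membrane dye that is diluted by division. After injection into the tail vein of young adult female mice, GFP-positive cells were sorted from the lung in small aliquots, dye-positive as dormant and dye-negative as growing tumor cells. Hosts were WT, or carried a Tgfbr2 KO made with floxed Tgfbr2 and Cre driven by the Lysozyme 2 promoter, which removes the TGF-beta type II receptor in myeloid cells and not in the tumor cells. This gave 4 groups of 3 libraries, which are named dormant WT and dormant KO, and growing WT and growing KO. The methods call the control hosts both WT and floxed controls, and the labels say only WT.

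Collagens are secreted proteins whose chains wind around each other into a rope-like helix. Types I, III and V build the fibrils of connective tissue, and in the lung these chains come mainly from fibroblasts and other mesenchymal cells. Type IV forms the sheet-like network of basement membranes under epithelium and endothelium, and many of the remaining types coat fibrils, anchor membranes, form beaded filaments or span the cell surface. Col2a1, Col11a1, Col11a2, Col24a1 and Col27a1, which also encode fibrillar chains, are counted here with the other types, and none of them was tested. Fibrillar collagen around disseminated tumor cells has been studied as a regulator of whether such cells rest or divide.

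Each comparison of hosts was also a comparison of library batches, since every WT library belonged to batch 1 and every KO library to batch 2, so that host and batch cannot be told apart. Comparisons of dormant with growing cells within a host lay within 1 batch. Between 11325 and 15315 genes were above 0 per library, and the dormant WT libraries were the least alike, with correlations across tested genes of 0.666 to 0.715 against 0.866 to 0.952 within the other groups. The depth behind a TPM is unknown, so precision here means the spread over 3 libraries, which the study describes as coming from separate mice. Of the epithelial genes checked for a mammary carcinoma line, Krt18 was between 130.6 and 519 TPM in all 12 libraries, whereas Epcam was at most 5.34 TPM and was listed at 0 in 6 libraries. Krt8, a keratin of the same list, fell between the dormant hosts, with an adjusted p of 0.00541. It was at 381, 188 and 183 TPM (dormant WT) and at 52.1, 106.3 and 79.9 TPM (dormant KO). Epcam was called higher in dormant KO, at 3.42, 0.27 and 5.34 TPM against 0.09, 0 and 0 TPM in dormant WT. Epcam was tested only through dormant KO, and its call was lost in 7 of 11 alternatives. The part of both genes in the collagen differences was not tested.

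Upstream sequence is shown for Col3a1, the chain that rose most in KO hosts, for Col8a1, the chain that fell most in dormant KO libraries, and for the interval shared by Col4a3 and Col4a4, which rose together. All are from RefSeq on GRCm38.p6, whose promoter table held 35 of the 44 collagen genes. Capitals mark matches on either strand to the motif TATAAA, to the motif CCAAT or to the motif GGGCGG. The Col3a1 and Col8a1 sequences are the 250 bases before the gene's start, in the sense of the gene. Col3a1 is the plus strand of chr1:45311288-45311537. Col8a1 is the minus strand of chr16:57754738-57754987. The Col4a3 and Col4a4 interval is the minus strand of chr1:82586850-82586920, the whole 71 bases between the starts of these oppositely directed genes.
Col3a1: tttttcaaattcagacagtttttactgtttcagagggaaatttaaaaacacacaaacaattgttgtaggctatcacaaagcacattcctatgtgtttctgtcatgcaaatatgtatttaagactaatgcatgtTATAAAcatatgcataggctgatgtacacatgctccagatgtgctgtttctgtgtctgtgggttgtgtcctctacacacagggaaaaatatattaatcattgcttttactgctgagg
Col8a1: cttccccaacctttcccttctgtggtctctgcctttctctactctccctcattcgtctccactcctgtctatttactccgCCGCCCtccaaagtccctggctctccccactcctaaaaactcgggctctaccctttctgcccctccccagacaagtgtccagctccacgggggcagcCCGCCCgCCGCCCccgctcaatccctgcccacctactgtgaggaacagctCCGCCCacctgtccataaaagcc
Col4a4 to Col4a3 interval: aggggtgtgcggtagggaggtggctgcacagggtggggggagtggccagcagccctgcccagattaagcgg
Col3a1 held 1 TATAAA match and no match to the others, while Col8a1 held 4 matches to GGGCGG, all on the opposite strand. The Col4a4 to Col4a3 interval held none of the 3 and was 69% G and C. Of 32851 windows of 250 bases in the table, 12.4% held TATAAA, 33.8% CCAAT and 32.7% GGGCGG. These matches describe the letters only.

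The hosts differed in which chains made up the collagen transcripts. Fibrillar chains summed to 184, 245 and 178 TPM (dormant KO) and to 37.5, 25.2 and 20.02 TPM (dormant WT), so the groups did not overlap. This rested on Col3a1, which made up 75.8%, 80.1% and 86.9% of the dormant KO sums and was listed at 0 in dormant WT. Without Col3a1, fibrillar chains were 0.00445%, 0.00486% and 0.00234% of all TPM in dormant KO. In dormant WT they were 0.00375%, 0.00252% and 0.00200%, so these shares overlapped. In the same libraries, the other types summed to 59.5, 88.2 and 78.2 TPM (dormant KO) and to 239, 122 and 126 TPM (dormant WT), which lay apart in the opposite direction. The sum over all 44 genes was 319 ± 55.1 TPM (SD, n = 3) in dormant KO and 225 ± 98.2 TPM in dormant WT, and these overlapped. Growing libraries held less, 123 ± 19.9 TPM in KO and 120.5 ± 21.01 TPM in WT hosts. Col3a1 was the most abundant collagen in all 6 KO libraries and made up 48.4%, 51.2% and 54.0% of collagen TPM in the dormant ones. Col6a3 or Col16a1 was the most abundant in each of the 6 WT libraries. Without the most abundant gene of each library, the mean sum was 156 TPM in dormant KO and 167 TPM in dormant WT, which turns the order of the dormant groups, and 96.97 TPM in growing KO and 92.0 TPM in growing WT. These sums were not tested. In RNA from sorted aliquots, fewer cells of a type and less RNA per cell cannot be told apart.

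**Figure D1:**
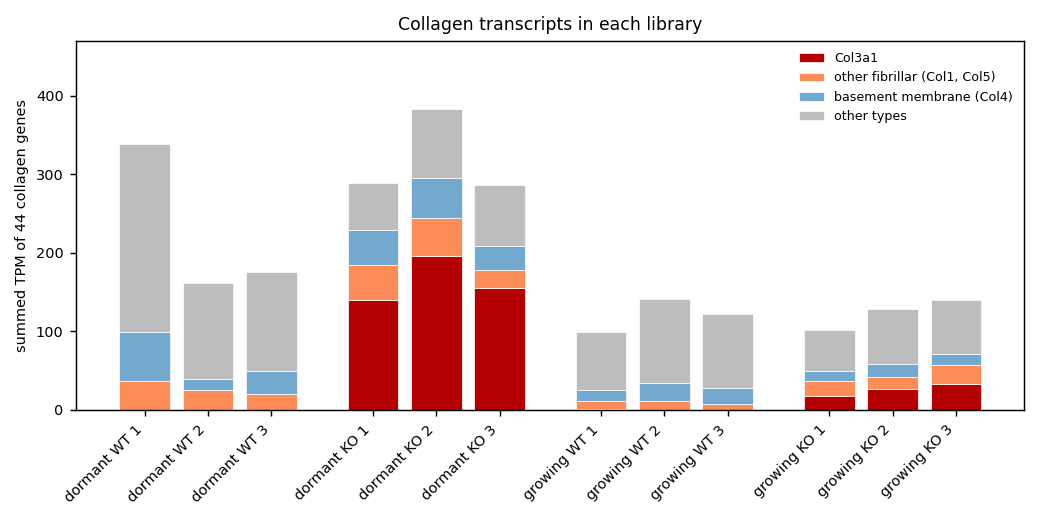
Summed TPM of the 44 collagen genes in each of the 12 libraries (vertical axis, linear from 0), stacked by Col3a1, the other fibrillar chains, basement membrane chains and other types. Col3a1 fills about as much of each dormant KO bar as the remaining collagens together, is a smaller block in growing KO and is not visible in WT libraries, where other types make up most of each bar.

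In dormant cells, 7 of the 20 tested collagen genes were higher in KO than in WT hosts and 2 were lower. Over all 13002 genes tested, 12.9% were called higher and 9.39% lower in this comparison, with an adjusted p of at most 0.05 and a difference of at least 1 on the log2(TPM + 1) scale. The median difference was 0.79 over the collagen genes and 0.17 over all genes. Among the 5 tested fibrillar chains 3 rose and 1 fell, among the 5 tested Col4 chains 3 rose, and among the 10 tested genes of other types 1 rose and 1 fell. The 9 calls became 5 without dormant KO replicate 1 or 2, and 11 without dormant WT replicate 2. The tested genes include Col4a3, Col4a4, Col5a2, Col12a1 and Col14a1, which reached the minimum for testing only through their dormant KO libraries. Of these, 4 are among the 7 that rose, and all 5 enter the median. The count and the median are therefore a description.

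Markers of lung cell types rose in the same dormant KO libraries. The largest sums were those of alveolar type 2 markers, at 39860 to 42258 TPM in dormant KO and 48.6 to 141 TPM in dormant WT. Most of this was Sftpc, at 36571 to 39284 TPM in dormant KO. Summed fibroblast markers were 1719 to 1902 TPM in dormant KO, 102.8 to 178 TPM in dormant WT, 62.5 to 102.1 TPM in growing WT and 314 to 372 TPM in growing KO. In dormant KO against dormant WT, 6 of 8 tested fibroblast markers, 8 of 8 mesothelium markers, 7 of 9 endothelium markers, 3 of 5 pericyte and smooth muscle markers, 6 of 7 alveolar type 1 markers, 5 of 7 alveolar type 2 markers and 4 of 5 airway markers were called higher, as against 0 of 6 macrophage markers and 12.9% of all genes. These counts are a description, since 3 of the 6 called fibroblast, 5 of the 8 mesothelium, 2 of the 7 endothelium, 2 of the 3 pericyte and smooth muscle, 2 of the 6 alveolar type 1 and 3 of the 5 alveolar type 2 markers, Tcf21 and Wt1 among them, were tested only through the dormant KO libraries, whereas none of the 4 airway markers was. Some of these calls were unstable. The fibroblast markers Dpt and Mfap4 lost the call in 10 of 13 and 5 of 12 alternatives, the endothelium marker Tek in 10 of 15 and the airway marker Scgb3a2 in 7 of 15. Dcn (decorin), a small proteoglycan that binds fibrils and marks fibroblasts, was at 1098, 1324 and 1094 TPM (dormant KO) and at 4.39, 0 and 0 TPM (dormant WT). The fibroblast marker Tcf21 was at 14.8, 11.7 and 7.77 TPM (dormant KO) and listed at 0 in the other 9 libraries. Pdgfra, which also marks lung fibroblasts, was not called, at 1.18 to 1.93 TPM in dormant KO and 1.27 to 16.7 TPM in dormant WT, and Lum was at 0.01 to 12.4 TPM in dormant KO and 0 to 71.8 TPM in dormant WT. The smooth muscle gene Cnn1 and the ciliated cell gene Foxj1 were listed at 0 in all 12 libraries. The part of these cell types in the collagen differences was not tested.

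**Figure D2:**
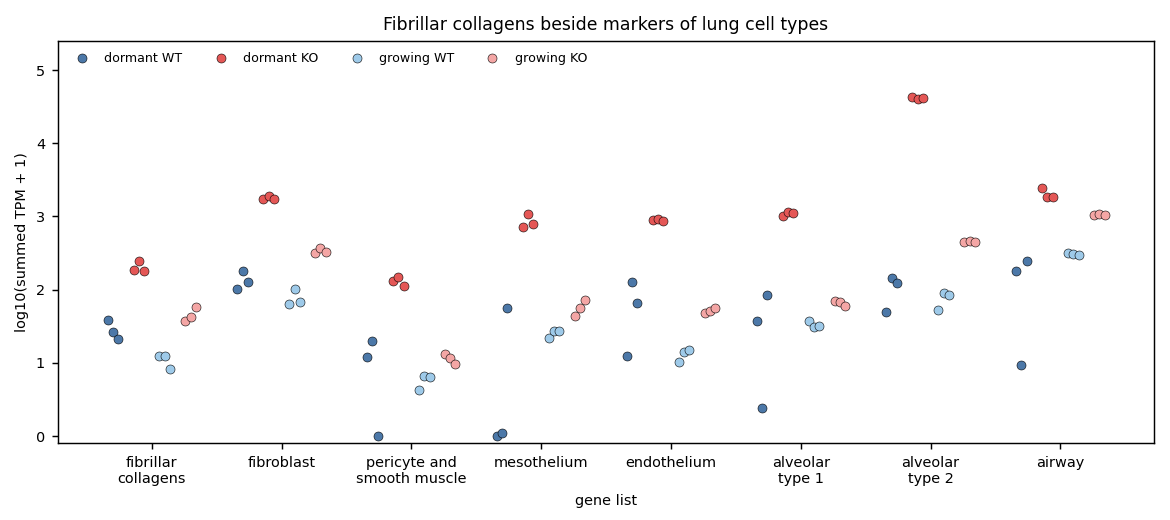
Summed TPM of the fibrillar collagens and of 7 marker lists in each library, as log10(summed TPM + 1), with 1 point per library and groups in colour. The dormant KO points lie above the dormant WT points in each list, and the growing KO points lie above the growing WT points for the fibrillar collagens and for each of the 7 marker lists.

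Col3a1, the chain of type III collagen, which accompanies type I in elastic tissues such as lung, lies at chr1:45311538-45349706 on the plus strand. It was at 139.6, 196 and 155 TPM (dormant KO), listed at 0 for every dormant WT replicate, 1.78, 0.31 and 0.21 TPM (growing WT) and 18.1, 27.2 and 33.5 TPM (growing KO). All KO libraries lay above all WT libraries, and the dormant KO libraries above the growing KO libraries. The adjusted p for the dormant hosts was 2.07e-06, and no fold is given because dormant WT is listed at 0.

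Type I collagen, the main fibril of connective tissue, is made of Col1a1 and Col1a2 chains, of which Col1a2 rose in dormant KO and Col1a1 did not pass the test. Col1a1 (chr11:94936224-94953042, plus strand) was at 4.65, 3.55 and 2.48 TPM (dormant KO), 5.71, 1.03 and 0.35 TPM (dormant WT), 1.60, 3.02 and 1.98 TPM (growing WT) and 5.53, 6.14 and 3.42 TPM (growing KO). The dormant groups overlapped, with a difference of 0.76 ± 0.62 (SE) on the log2(TPM + 1) scale and an adjusted p of 0.425, and it was -0.39 with quantile normalization, 1.43 without dormant WT replicate 1 and 0.28 without dormant WT replicate 3. Col1a2 (chr6:4504814-4541544, plus strand) was at 29.4, 35.7 and 14.3 TPM (dormant KO), 0.93, 12.9 and 0 TPM (dormant WT), 1.30, 0.40 and 0.98 TPM (growing WT) and 10.9, 4.89 and 12.8 TPM (growing KO). Its dormant groups did not overlap, although dormant WT replicate 2 came close to dormant KO replicate 3, and the difference was 3.10 ± 0.87 with an adjusted p of 0.0225. This call was lost without dormant WT replicate 1 (adjusted p 0.0520) or 3 (0.0605) and without dormant KO replicate 1 (0.0707) or 2 (0.0764). It was also lost with library weights (0.0510) and in a fit of the dormant libraries alone (0.111). In every dormant KO library Col1a2 was above Col1a1 on the TPM scale, which is per length.

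The type V chains, which join type I fibrils at their core and set fibril width, moved in opposite directions. Col5a2 (chr1:45374321-45503282, minus strand), whose gene lies 24614 bases from Col3a1, was at 9.63, 7.62 and 4.64 TPM (dormant KO), listed at 0 in each dormant WT library, at 0, 0.19 and 0 TPM (growing WT) and at 0.50, 1.12 and 0.11 TPM (growing KO). Its dormant KO libraries lay above all others. Col5a2 was tested only through these libraries, and its adjusted p against dormant WT, 0.000155, is given with that limit. Col5a1 (chr2:27886425-28039514, plus strand) was at 0.68, 1.73 and 1.69 TPM (dormant KO), 30.8, 11.2 and 19.7 TPM (dormant WT), 6.40, 7.58 and 4.05 TPM (growing WT) and 1.48, 2.02 and 6.75 TPM (growing KO). It was highest in dormant WT, which overlapped with no other group, and fell by 3.12 ± 0.61 on the log2(TPM + 1) scale in dormant KO, with an adjusted p of 0.00286. Col5a3, the remaining type V chain, reached at most 1.22 TPM and was not tested.

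**Figure D3:**
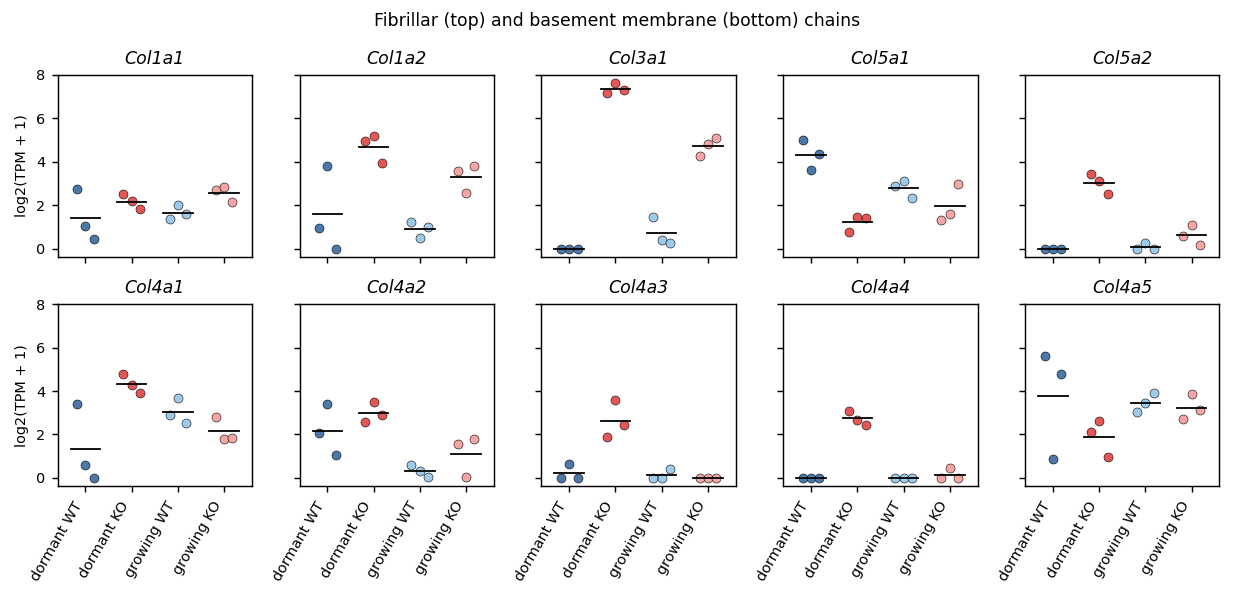
TPM of each tested fibrillar chain (top row) and Col4 chain (bottom row) as log2(TPM + 1), with 1 point per library and a bar for the mean of 3 libraries in each group. Col3a1, Col5a2, Col4a3 and Col4a4 stand high in dormant KO, Col5a1 stands high in dormant WT, and the dormant WT points of Col1a2, Col4a1 and Col4a5 are widely spread.

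Type IV collagen occurs as a widespread network of Col4a1 and Col4a2, and as a network of Col4a3, Col4a4 and Col4a5 found in alveolar and kidney basement membranes. Col4a3 (chr1:82586921-82722059, plus strand) was at 2.67, 11.0 and 4.44 TPM (dormant KO) and at most 0.55 TPM in the other 9 libraries. Col4a4 (chr1:82448423-82586849, minus strand), which shares the upstream interval printed above, was at 7.51, 5.36 and 4.50 TPM (dormant KO) and at most 0.37 TPM in the other 9 libraries. Both pairs of dormant groups lay apart, with differences of 2.42 ± 0.43 for Col4a3 (adjusted p 0.00165) and 2.73 ± 0.31 for Col4a4 (adjusted p 7.27e-05), and with quantile normalization the adjusted p of Col4a3 was 0.132. Neither gene reached the minimum for testing when a dormant KO library was left out.

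Alveolar type 1 cells, which are known to lay down this network in the alveolar wall, had summed markers of 1001 to 1162 TPM in dormant KO, 1.40 to 84.2 TPM in dormant WT, 29.8 to 36.5 TPM in growing WT and 58.7 to 68.1 TPM in growing KO. Their part in the Col4a3 and Col4a4 differences was not tested. Col4a5, the chain that completes this network, was not called. It lies at chrX:141475385-141689234 on the plus strand and was at 3.29, 5.16 and 0.95 TPM (dormant KO), 48.5, 0.85 and 26.9 TPM (dormant WT), 7.21, 9.82 and 14.3 TPM (growing WT) and 5.63, 13.3 and 7.63 TPM (growing KO). The dormant groups overlapped through dormant WT replicate 2, with a difference of -1.88 ± 1.04 and an adjusted p of 0.226. Without that library the difference was -3.32 and the adjusted p 0.00259, without dormant WT replicate 1 the difference was -0.95, and with quantile normalization it was -2.58 with an adjusted p of 0.0244.

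Col4a1 and Col4a2 are the chains of the widespread network and start head to head on chromosome 8, at chr8:11198423-11312826 on the minus strand and chr8:11312805-11449287 on the plus strand. Their annotated ends share 22 bases, and whether reads were counted by strand was not stated, so a small part of the reads could be assigned to either. Col4a1 was at 26.3, 18.1 and 14.0 TPM (dormant KO), 9.51, 0.52 and 0 TPM (dormant WT), 6.47, 11.9 and 4.76 TPM (growing WT) and 5.97, 2.52 and 2.63 TPM (growing KO). The dormant KO libraries lay above all others, and the difference from dormant WT was 2.98 ± 0.82 with an adjusted p of 0.0199. This call was lost without dormant WT replicate 3 (adjusted p 0.0537) and without dormant KO replicate 1 (0.0727) or 2 (0.0515), with library weights (0.0954) and in a fit of the dormant libraries alone (0.104). Col4a2 was at 4.94, 10.3 and 6.43 TPM (dormant KO), 3.22, 9.45 and 1.07 TPM (dormant WT), 0.52, 0.23 and 0.02 TPM (growing WT) and 1.91, 0.03 and 2.44 TPM (growing KO). Its dormant groups overlapped, with a difference of 0.82 ± 0.67 and an adjusted p of 0.431, and leaving out dormant WT replicate 2 or 3 gave 1.43 or 0.26. Summed endothelium markers, from cells that rest on this network, were 854 to 936 TPM in dormant KO and 11.3 to 127 TPM in dormant WT, and their part was not tested. Col4a6, which pairs with Col4a5 in some basement membranes, reached at most 3.01 TPM and was not tested.

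Between dormant hosts, Col8a1, one of the other types, showed the largest difference in size of the tested collagen genes apart from Col3a1. It encodes a chain of type VIII, a short network-forming collagen of vessel walls and of tissue under repair, and lies at chr16:57624258-57754737 on the minus strand. Col8a1 was at 0.45, 0.09 and 0.16 TPM (dormant KO), 18.1, 24.5 and 34.8 TPM (dormant WT), 7.95, 10.3 and 12.1 TPM (growing WT) and 6.37, 7.18 and 4.42 TPM (growing KO). The 4 groups did not overlap at all, with dormant WT highest and dormant KO lowest. The log2(TPM + 1) level fell by 4.41 ± 0.48 in dormant KO against dormant WT, with an adjusted p of 5.99e-05.

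Type VI chains, which form beaded filaments around cells, are named after their values were seen. Col6a1 ranged from 11.4 to 46.3 TPM over all 12 libraries, and its dormant groups overlapped with a difference of 0.23 ± 0.46 (adjusted p 0.778), which was -0.08 without dormant WT replicate 2, 0.61 without dormant WT replicate 1 and 0.10 without dormant KO replicate 2. Col6a2 was at 6.71, 15.2 and 12.1 TPM (dormant KO) and 0.02, 0.02 and 11.1 TPM (dormant WT), a difference of 2.34 ± 0.89 (adjusted p 0.0822). Without dormant WT replicate 3 this was 3.53 with an adjusted p of 0.00172, and with median-ratio scaling it was 2.69 with an adjusted p of 0.0375.

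Col6a3 was at 1.72, 0.01 and 4.27 TPM (dormant KO) and 93.4, 29.8 and 0.15 TPM (dormant WT), a difference of -2.62 ± 1.30 (adjusted p 0.176). Dormant WT replicate 3 was the library that made the groups overlap, and without it the difference was -4.47 with an adjusted p of 0.00176. Without dormant WT replicate 1 it was -1.29, and with quantile normalization -3.14 with an adjusted p of 0.0430. Col14a1, a fibril-coating collagen also named after its values were seen, was at 7.21, 11.9 and 3.53 TPM (dormant KO) and at most 0.03 TPM in dormant WT, with a difference of 2.95 ± 0.51 (adjusted p 0.00127). Of the 10 tested genes of other types it was the only one called higher, and it reached the minimum for testing only through dormant KO. Col16a1, a small fibril-associated collagen, showed how uneven the dormant WT libraries were, at 75.3, 0 and 52.6 TPM, against 5.26 to 20.6 TPM in dormant KO. The other 4 tested genes were Col7a1, Col12a1, Col13a1 and Col18a1, and none of these was called between the dormant groups.

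**Figure D4:**
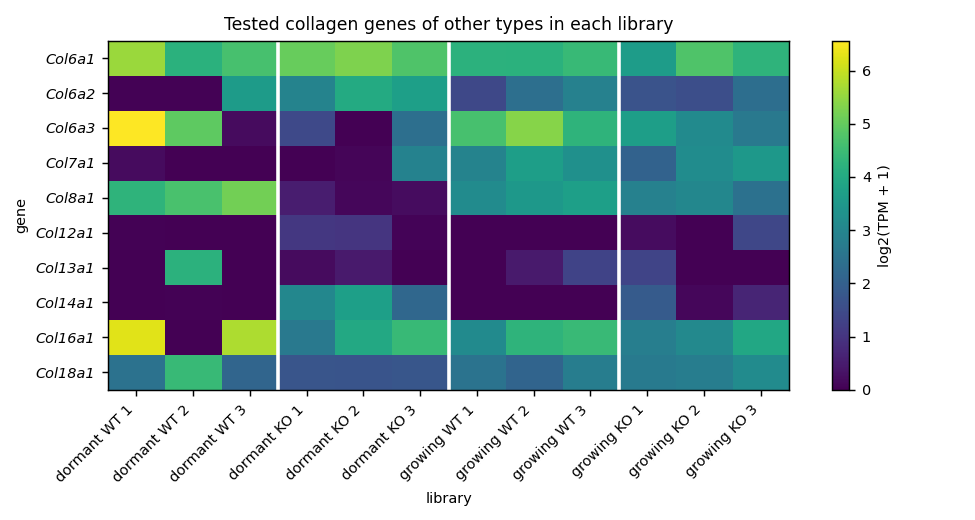
Heat map of the 10 tested collagen genes of other types (rows) in the 12 libraries (columns, in 4 groups set apart by white lines), coloured by log2(TPM + 1). Col8a1 is dark in dormant KO and bright in dormant WT, Col14a1 shows the reverse, and Col6a3 and Col16a1 differ widely among the 3 dormant WT libraries.

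In growing cells, Col3a1 was the only collagen gene called between hosts, higher in KO by 4.01 ± 0.50 on the log2(TPM + 1) scale (adjusted p 0.00225), which was 2.42 with a pseudocount of 5. Over all genes, 0.715% were called higher and 0.261% lower in this comparison, and the median difference was -0.10 over the collagen genes and 0.02 over all genes. Col1a2 was also higher in each growing KO library than in any growing WT library, by 2.42 ± 0.87, but its adjusted p was 0.420. With library weights this became 0.00866 and in a fit of the growing libraries alone 0.0266. In these libraries 1 of 8 fibroblast markers was called higher, and this was Dcn, which was at 245, 263 and 254 TPM (growing KO) and 8.78, 22.9 and 10.2 TPM (growing WT), a call lost with a pseudocount of 0.1 (adjusted p 0.185). Other lung markers called higher were 1 of 8 for mesothelium, 2 of 7 for alveolar type 2, 1 of 5 for airway and 1 of 6 for macrophage, and none for pericyte and smooth muscle, endothelium or alveolar type 1. The summed markers of every one of these 8 lists were nevertheless higher in each growing KO library than in any growing WT library, at 314 to 372 TPM against 62.5 to 102.1 TPM for fibroblasts, 453 to 463 against 52.0 to 90.1 for alveolar type 2, 46.4 to 55.3 against 9.17 to 13.9 for endothelium and 51.1 to 74.1 against 10.8 to 19.8 for macrophages. The fibroblast sums in growing KO were mostly Dcn. Of the other fibroblast markers, Inmt was at 18.9 to 62.2 TPM in growing KO and 5.41 to 12.1 TPM in growing WT. Lum went the other way, at 34.45 to 41.79 TPM in growing KO and 41.81 to 64.45 TPM in growing WT. The part of these cell types in the Col3a1 difference was not tested. The Col5a2, Col4a3, Col4a4 and Col8a1 genes, which differed between hosts in dormant cells, were not called here.

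Between dormant and growing cells in WT hosts, 1 of the 20 collagen genes was lower and none was higher, where 5.67% of all genes were lower and 1.85% higher. The median difference was 0.03 over the collagen genes and -0.35 over all genes. The gene was Col7a1, the anchoring fibril of the skin and of other epithelia (chr9:108953586-108984875, plus strand), named after its values were seen. Col7a1 was at 0.15, 0 and 0 TPM (dormant WT) and 6.67, 11.7 and 8.77 TPM (growing WT), with a difference of -3.23 ± 0.75 (adjusted p 0.0230). The groups lay far apart, but the call was lost on leaving out growing WT replicate 1 (adjusted p 0.0588), 2 (0.0857) or 3 (0.0735), with no filter (0.0572), with quantile normalization (0.0557) and with library weights (0.165). Col5a1 and Col8a1 were each higher in all dormant WT libraries than in any growing WT library, by 1.55 ± 0.61 (adjusted p 0.143) and 1.24 ± 0.48 (adjusted p 0.139), and did not pass the test. Col4a2 was also higher in each dormant WT library, by 1.86 ± 0.67 (adjusted p 0.114), and its adjusted p was 0.0395 without dormant WT replicate 3 and 0.0281 with quantile normalization. Col4a1 differed by -1.71 ± 0.82 (adjusted p 0.230) and by -2.74 without dormant WT replicate 1 (adjusted p 0.0108), but by -1.04 without dormant WT replicate 3. Macrophage markers moved with this comparison, with 3 of 6 called higher in dormant WT and summed levels of 443 to 665 TPM against 10.8 to 19.8 TPM in growing WT. Of 8 fibroblast markers 1 was higher and 1 lower, 1 of 7 alveolar type 1 markers was lower, and none was called for the other lung cell lists. Their part in the collagen values was not tested.

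In KO hosts, dormant cells differed from growing cells in 6 collagen genes, 5 higher and 1 lower, where 8.31% of all genes were higher and 9.48% lower. The median difference was 0.60 over the collagen genes and -0.32 over all genes. Of the 5 higher genes, Col4a3, Col4a4, Col5a2 and Col14a1 reached the minimum for testing only through dormant KO libraries, so this count and median are a description as well. Col3a1 was higher by 2.62 ± 0.50 (adjusted p 0.00310), a mean TPM 6.23 times that of growing KO. Col5a2 was higher by 2.40 ± 0.38 (adjusted p 0.000953), and Col4a3 and Col4a4 by 2.63 ± 0.43 (adjusted p 0.00124) and 2.59 ± 0.31 (adjusted p 0.000153). Col14a1 was higher by 2.08 ± 0.51 (adjusted p 0.0133), a call lost without dormant KO replicate 2 (adjusted p 0.0508) or growing KO replicate 2 (0.0604), and Col8a1 fell by 2.49 ± 0.48 (adjusted p 0.00330). Col4a3 and Col4a4 were not tested without a dormant KO library. The count of 6 fell to 4 without dormant KO replicate 1, and to 3 without replicate 2, where Col14a1 was lost as well. Col4a1 and Col4a2 were also higher in each dormant KO library than in any growing KO library, by 2.15 ± 0.82 (adjusted p 0.0938) and 1.87 ± 0.67 (adjusted p 0.0772). These passed the test with median-ratio scaling (0.0337 and 0.0324), quantile normalization (0.0198 and 0.0305), library weights (0.0159 and 0.0334) and a fit of KO libraries alone (0.0133 and 0.0485), and Col4a1 also with a pseudocount of 5 (0.0367).

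Lung markers separated the same KO groups by differing amounts. Mean fibroblast marker sums were 5.28 times as high in dormant KO as in growing KO, beside 4.46 times for the fibrillar collagens, 2.93 times for the Col4 chains and 1.18 times for the other types. The ratio was 1.96 for airway markers, 4.61 for Dcn, 12.4 for pericyte and smooth muscle markers, 15.3 for mesothelium, 16.9 for alveolar type 1, 17.6 for endothelium and 89.8 for alveolar type 2 markers. Single genes dominate some sums, with Dcn at a mean of 1172 of 1784 TPM for fibroblast markers in dormant KO. Col3a1 was at 163.5 of 202 TPM for the fibrillar collagens there. The fibroblast marker Lum went the other way, at 0.01 to 12.4 TPM in dormant KO and 34.45 to 41.79 TPM in growing KO. As a description under the same limit, markers called higher were 4 of 8 for fibroblasts, 3 of 5 for pericytes and smooth muscle, 7 of 8 for mesothelium, 7 of 9 for endothelium, 5 of 7 for each alveolar type, 1 of 5 for airway and 3 of 6 for macrophages. The part of these cells in the collagen differences was not tested.

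**Figure D5:**
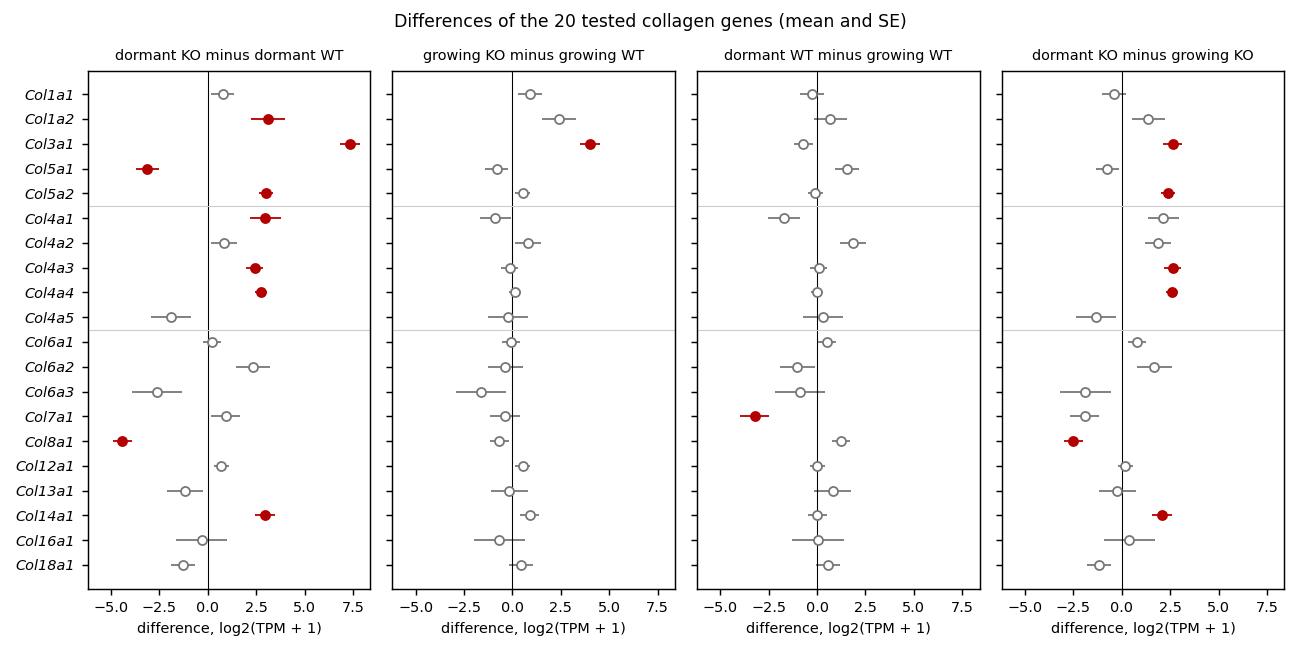
Differences of the 20 tested collagen genes in 4 comparisons, as points with SE on the log2(TPM + 1) scale, with filled red points for called genes and open grey points for the others, and lines dividing fibrillar, Col4 and other types. Col3a1 lies to the right of 0 in both host comparisons and in dormant against growing KO cells, and Col8a1 to the left in dormant KO against either group. The positions of Col3a1 and Col5a2 against dormant WT depend on the pseudocount, since both are listed at 0 there.

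Whether the dormant state went with different collagen changes in the hosts was tested as an interaction, the dormant minus growing difference in KO hosts less that in WT hosts. It passed for 5 collagen genes, higher for Col3a1, Col5a2, Col4a3 and Col4a4 and lower for Col8a1, where 6.18% of all genes were higher and 3.91% lower. The 5 calls fell to 2 with library weights and to 3 on leaving out any 1 of the dormant KO libraries. Col4a3 lost its call in 5 of 16 alternatives. The median was 0.32 over the collagen genes and 0.16 over all genes. Col5a2, Col4a3 and Col4a4 were tested only because of their dormant KO libraries, so here too the count and the median are a description. Col8a1 was higher in each dormant WT library than in any growing WT library, by 1.24 ± 0.48, which was not called (adjusted p 0.139). In KO hosts Col8a1 was lower in dormant than in growing cells (adjusted p 0.00330). For Col5a1 the interaction was -2.29 ± 0.86 and the adjusted p 0.124. Col4a1 gave 3.86 ± 1.16 (adjusted p 0.0573), which passed with median-ratio scaling (0.0266), quantile normalization (0.0408), a pseudocount of 5 (0.0467) and without dormant WT replicate 1 (4.89, adjusted p 0.00297). Col14a1 gave 2.07 ± 0.72 (adjusted p 0.0979) and 2.56 without growing KO replicate 1 (adjusted p 0.0317), and with median-ratio scaling its adjusted p was 0.0419. Each of the differences compared here lay within 1 batch, but the KO difference lay in batch 2 and the WT difference in batch 1. Host and batch therefore cannot be told apart in the interaction either.

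Genes that make, cut, cross-link, bind and degrade collagen were counted in the same way, beside the 12.9% of all genes that were higher and the 9.39% that were lower in dormant KO against dormant WT. The counts are a description, because P3h4, Adamts2, Fmod, Podn, Prelp, Lama3, Lama4, Mmp2 and Mmp8 among the genes that rose reached the minimum for testing only through dormant KO. In this comparison 1 of 18 tested modification and folding genes rose and 1 fell. The gene that rose was P3h4, a partner of lysyl hydroxylase, at 31.9, 16.0 and 5.02 TPM (dormant KO) and listed at 0 in dormant WT, a call lost with library weights (adjusted p 0.0608). Sec23a, a coat protein needed to export procollagen, fell by 1.92 (adjusted p 0.0111), which was lost with median-ratio scaling (0.0528), library weights (0.104) and a fit of the dormant libraries alone (0.0973). Of 9 processing and cross-linking genes 3 rose and 1 fell. Loxl1, a lysyl oxidase of elastic fibres, was at 18.5, 26.6 and 20.1 TPM (dormant KO) and 1.20, 0 and 0 TPM (dormant WT) (adjusted p 7.65e-05), and Adamts2, which trims the procollagen amino end, was at 1.26, 1.25 and 2.42 TPM (dormant KO) and listed at 0 in dormant WT, which was not called with a pseudocount of 5, quantile normalization or library weights. Pcolce2, an enhancer of procollagen trimming, rose by 1.98 (adjusted p 0.0164) and lost the call in 5 of 15 alternatives, whereas Loxl3 fell by 2.80 (adjusted p 0.00561), which was lost in a fit of the dormant libraries alone (0.0605).

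Of 11 genes whose products associate with fibrils, 6 rose and 2 fell in the dormant hosts comparison. Those that rose were the small leucine-rich proteoglycans Dcn, Bgn, Ogn, Podn, Prelp and Fmod. The call of Fmod was lost with a pseudocount of 5, where its difference was 0.90. Bgn (biglycan) was at 99.3, 189 and 123 TPM (dormant KO) and at 0.03, 1.16 and 3.10 TPM (dormant WT) (adjusted p 4.30e-05). The 2 that fell were Fn1, the fibronectin on which cells assemble collagen, and Thbs2, a matricellular protein. Fn1 was at 22.1, 24.5 and 22.7 TPM (dormant KO) and 297, 368 and 304 TPM (dormant WT) (adjusted p 2.33e-06), and Thbs2 was at 8.99, 3.30 and 6.40 TPM against 573, 132 and 301 TPM (adjusted p 2.91e-05).

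Of 9 laminins and other partners of type IV collagen, 3 rose (Lama3, Lama4 and Nid1, each listed at 0 in dormant WT) and 2 fell (Lama5 and Lamb1). The call was lost in 7 of 15 alternatives for Lama5, 5 of 14 for Nid1, 4 of 11 for Lama3 and 1 of 14 for Lama4, and in none for Lamb1. Among 5 collagen receptors, the tyrosine kinase Ddr1 rose, at 5.44, 5.30 and 4.96 TPM (dormant KO) against 0, 0 and 0.02 TPM (dormant WT) (adjusted p 0.000512). Ddr2, the receptor that favours fibrillar collagen, fell from 159, 98.7 and 87.4 TPM to 20.2, 36.8 and 19.7 TPM (adjusted p 0.00132), and the shared integrin chain Itgb1 fell by 1.66 (adjusted p 0.00174). Of 6 collagen-degrading enzymes, Ctsk rose by 5.69 (adjusted p 0.000111) and Mmp9 fell by 2.21 (adjusted p 0.0364), a call lost in 9 of 15 alternatives. Mmp2 was at 22.4, 8.17 and 10.3 TPM (dormant KO) and at most 0.02 TPM in dormant WT, and Mmp8 at 2.62, 5.15 and 5.02 TPM (dormant KO) and listed at 0 in the other 9 libraries. Both were called higher, but were tested only through dormant KO, and lost the call with library weights (Mmp2) or a pseudocount of 5 (Mmp8). In growing cells, Dcn was the only gene of these 6 lists called between hosts.

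The 24 collagen genes that were not tested were low in every library. Col2a1, Col6a4, Col9a2, Col19a1, Col24a1 and Col26a1 were listed at 0 in all 12 libraries. The highest value among the other 18 was 8.16 TPM, for Col22a1 in dormant WT replicate 2, where Col4a6, Col25a1 and Col28a1 also had their highest values. Per library, 9 to 13 of the 44 genes were at 1 TPM or more in dormant WT, 16 to 18 in dormant KO, 12 to 14 in growing WT and 16 or 17 in growing KO.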

How the data were processed

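Per the labels, the authors used cutadapt, STAR 2.5.2b and RSEM 1.3.3 on the mm10 build, with a GENCODE annotation per the methods. They deposited TPM, in which library total and gene length are divided out, so depth is not recoverable. The methods describe a small-input full-length library protocol, and the labels a TruSeq mRNA kit. A further 30 per-sample columns matched no labelled sample and were not used.

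The members and gene lists were chosen with earlier results of these data known. TPM was transformed to log2(TPM + 1). Genes with at least 1 TPM in at least 3 libraries (13002 of the 25916 above 0) were fitted with limma 3.58.1 (eBayes with trend, R 4.3.3), with 1 mean for each of 4 groups over all 12 libraries. Benjamini-Hochberg adjustment ran over all tested genes, 2-sided, and calls needed an adjusted p of at most 0.05 and a difference of at least 1. An exact permutation test of 3 against 3 libraries cannot go below 0.1. The script was tested on simulated data.

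Values in every library were to be given for tested fibrillar and Col4 chains, and for other types called somewhere with a group mean of at least 10 TPM. RSEM shares reads among similar or overlapping genes by an estimate. Coordinates are from GENCODE M21 on GRCm38 (mm10), matched by gene ID. Alternatives were other pseudocounts, filters, scalings, library weights, smaller fits, a replicate block and leaving out each library.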

Additional observations from a re-analysis of the deposited data

Results flagged for a closer look

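The dormant minus growing difference of 5 collagen genes differed between hosts by the interaction test of limma, 4 of them higher, where 6.18% of all genes tested were higher and 3.91% lower. Col4a3, Col4a4 and Col5a2 were tested only through their dormant KO libraries, where they are high, so the count and the values of these 3 are a description. On the log2(TPM + 1) scale the KO difference less the WT difference was 3.34 for Col3a1 (adjusted p 0.0112), 2.55 for Col4a3 (0.0209), 2.58 for Col4a4 (0.00357), 2.48 for Col5a2 (0.0120) and -3.73 for Col8a1 (0.00510).

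Each KO comparison lay in batch 2 and each WT comparison in batch 1, so that host and batch cannot be told apart. With library weights the adjusted p was 0.0584 for Col3a1, 0.0659 for Col5a2 and 0.0663 for Col4a3. The adjusted p of Col4a3 was also 0.0589 without growing WT replicate 3, 0.0519 with no filter, 0.0563 with a pseudocount of 5 and 0.370 with quantile normalization. Col4a3 and Col4a4 could not be tested without any of the dormant KO libraries.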

How the results depend on the processing

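TPM keeps no depth, so low values cannot be told from missed reads, and the spread rests on 3 libraries a group. Of 326 alternatives to the 22 called collagen differences, 299 kept the direction and the call, 27 lost the call and 0 reversed. Of 254 alternatives to 16 collagen differences that were not called, 226 kept both, 26 gained a call and 2 reversed. These were Col1a1 between dormant hosts, -0.39 with quantile normalization, and Col6a1 in the same comparison, -0.08 to 0.61 on leaving out a library and -0.0755 without dormant WT replicate 2.

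With a minimum of 5 TPM, which tests fewer genes, the collagen genes called were 5 in place of 9 between dormant hosts, 2 of 6 between KO states and 2 of 5 for the interaction, where library weights also gave 2. Between growing hosts, library weights and the fit of only those groups gave 2 in place of 1. Between WT states, no filter and library weights each gave 0 in place of 1. Leaving out each library gave 5 to 11 calls between dormant hosts, 1 between growing hosts, 0 to 3 between WT states, 3 to 6 between KO states and 3 to 6 for the interaction. The lowest count between dormant hosts came without dormant KO replicate 1 or 2. Without the most abundant gene, collagen summed to 156 TPM in place of 319 in dormant KO and 167 in place of 225 in dormant WT, which turned their order, 92.0 in place of 120.5 in growing WT and 96.97 in place of 123 in growing KO.

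The median of all genes between dormant hosts was 0.17 as deposited, 0.50 with median-ratio scaling and -0.14 with quantile normalization. Differences of genes near 0 depend on the pseudocount, such as Col5a2 between dormant hosts, which was 6.15 with 0.1 and 1.28 with 5. Same-numbered libraries did not deviate together (correlations of -0.01 to 0.02), so the numbers were not taken as pairs, and with a replicate block 9 collagen genes were called between dormant hosts, with no call of a named collagen gene changed. For 27 called differences of partner genes, 340 of 383 alternatives kept the call, 43 lost it and 0 reversed, none of them under the block. For 40 called markers between dormant hosts, 525 of 570 kept it, 45 lost it and 0 reversed, and the block lost 2, Dpt (adjusted p 0.0584) and Tek (0.0622).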
